A study of Mus musculus with 6 samples.

Results

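The collagen genes of the mouse paraventricular thalamus are described here, in mice with nerve injury and in untreated mice. They are the 44 genes of the 21959 in the deposited table whose symbol is Col, a number, the letter a and a number. By class, 11 encode fibrillar collagens, 6 the type IV collagens of basement membranes and 27 other collagens. Bulk RNA sequencing was done on 6 libraries. All mice were wild type. The 3 CCI libraries (replicates 1 to 3) came from mice with chronic constriction injury, a neuropathic pain model made by tying loose ligatures around a nerve, and the 3 control libraries (replicates 4 to 6) from mice given no treatment. The design text gives 30 mice per group without saying how many went into each library. Nothing states that libraries came from separate animals, and the p-values measure only how far these libraries spread, which may be technical. Age, sex and the time after injury are not given in the sources used here, and the labels name the tissue only as brain.

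Collagens are extracellular proteins made of 3 chains wound into a triple helix. Fibrillar collagens assemble into the fibrils of connective tissue, type IV collagens form the sheet-like network of basement membranes, and the remaining types coat fibrils, form beaded filaments or span the cell membrane. In the brain, fibrillar collagens are made mainly by fibroblasts of the meninges and of vessels, type IV collagen surrounds blood vessels, and several transmembrane and fibril-associated collagens are made by neurons.

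The CCI libraries held 7989139 to 10529886 counts in total and the control libraries 12337448 to 15438268. Control replicate 5 stood apart from the other controls, with a TMM factor (a scaling for library composition) of 0.686 against 0.866 and 0.90. CCI factors were 1.21 to 1.25. Control replicate 6 had a choroid plexus marker sum of 230 scaled FPKM, against 2264 in replicate 4 and 3443 in replicate 5. It was the lowest of the 6 libraries for Col3a1, Col8a2 and Col4a6, and for other members, among them Col1a1, Col1a2, Col4a1, Col4a3 and Col9a3. Collagen genes that rose numbered 28 of 37 tested without replicate 5, 22 of 37 without replicate 6 and 26 of 35 with all libraries. Over all genes tested, 31.5%, 21.3% and 27.0% rose in those fits in turn. Levels are given as scaled FPKM, the count per kilobase of gene length, as FPKM is, but with the TMM-adjusted total in place of the raw total, and fold changes as log2 of CCI over control from edgeR's quasi-likelihood test, with Benjamini-Hochberg adjustment over all genes tested. A gene passed at an adjusted p of 0.05. The thalamus named in the design text was checked against its neurons: all 8 thalamic neuron genes passed the filter and fell in CCI, with a summed level of 343 to 535 against 1363 to 1528, while 6 of 8 hippocampal and cortical neuron genes rose, with a summed level of 37.4 to 53.7 against 9.70 to 15.1. The highest of these sums, 53.7, was in CCI replicate 3, where Neurod6 was at 26.8, against 1.96 and 1.61 in CCI replicates 1 and 2. Fezf2, Tbr1, Emx1 and Slc17a7 were also highest in that library, while Prox1 and C1ql2 were lower there than in the other CCI libraries. The part of these differences in the collagen results was not tested.

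Promoter windows are shown for 4 collagen genes, because Col4a1 and Col4a2 share a promoter, and because Col1a2 and Col3a1 are a fibrillar gene that rose and one whose groups overlapped. Each window runs from 250 bases before to 50 bases after the RefSeq start on GRCm38.p6, 5′ to 3′ on the strand of the gene. Capitals mark the GC box (GGGCGG), the CCAAT box (CCAAT) and the TATA box (TATAAA), searched on both strands. The windows are Col4a1 at chr8:11312777-11313076 (minus strand), Col4a2 at chr8:11312555-11312854 (plus strand), Col1a2 at chr6:4505368-4505667 (plus strand) and Col3a1 at chr1:45311288-45311587 (plus strand).
Col4a1: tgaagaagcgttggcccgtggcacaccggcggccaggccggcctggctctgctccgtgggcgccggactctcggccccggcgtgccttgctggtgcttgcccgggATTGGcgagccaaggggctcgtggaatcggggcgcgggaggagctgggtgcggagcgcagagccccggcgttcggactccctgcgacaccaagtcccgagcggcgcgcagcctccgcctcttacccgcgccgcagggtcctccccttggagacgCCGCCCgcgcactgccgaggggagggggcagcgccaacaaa
Col4a2: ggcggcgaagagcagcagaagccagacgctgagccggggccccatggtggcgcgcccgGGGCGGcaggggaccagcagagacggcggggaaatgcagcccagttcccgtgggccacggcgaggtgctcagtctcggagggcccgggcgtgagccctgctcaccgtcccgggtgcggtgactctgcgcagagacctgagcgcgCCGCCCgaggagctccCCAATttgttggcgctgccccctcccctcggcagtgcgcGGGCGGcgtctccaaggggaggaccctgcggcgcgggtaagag
Col1a2: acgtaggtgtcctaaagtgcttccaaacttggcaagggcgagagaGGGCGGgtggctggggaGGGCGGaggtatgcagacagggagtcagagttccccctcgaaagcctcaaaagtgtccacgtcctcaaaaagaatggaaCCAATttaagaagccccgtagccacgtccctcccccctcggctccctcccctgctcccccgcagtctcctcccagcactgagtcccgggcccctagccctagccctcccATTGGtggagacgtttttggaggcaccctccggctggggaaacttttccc
Col3a1: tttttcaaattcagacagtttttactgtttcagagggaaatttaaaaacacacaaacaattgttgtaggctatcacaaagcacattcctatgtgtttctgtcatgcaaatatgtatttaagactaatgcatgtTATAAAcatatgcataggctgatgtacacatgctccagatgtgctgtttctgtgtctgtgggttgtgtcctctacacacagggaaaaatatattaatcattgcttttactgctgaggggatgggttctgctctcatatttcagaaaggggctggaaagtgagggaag

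The Col4a1 and Col4a2 windows share 78 bases, as the genes start head to head on opposite strands. GC boxes number 1 in the Col4a1 window, 3 in that of Col4a2, 2 in that of Col1a2 and 0 in that of Col3a1, which holds a TATA box instead. Of the 44 collagen genes, 35 had a window in the table, with 38 windows in all. A GC box was present in 23 of the 38 (60.5%), against 35.7% of all 32851 windows, a CCAAT box in 34.2% against 37.4% and a TATA box in 13.2% against 13.6%. Collagen windows were also richer in G and C, at a median of 59.8% against 52.7%. These matches describe the letters of a window and not a bound site.

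Collagen transcripts were scarce and most were higher in CCI. Together the 44 genes had 405 to 427 CPM of the deposited counts in CCI libraries and 134 to 155 CPM in control libraries, and they summed to 49.0 ± 1.05 scaled FPKM in CCI libraries against 20.8 ± 1.64 for controls (SD, n = 3), or 2.36 times as much. The fibrillar sum was 6.41 ± 0.180 against 2.13 ± 0.250 (3.0-fold), the type IV sum 7.17 ± 0.533 against 3.19 ± 0.457 (2.25-fold) and the sum of the others 35.4 ± 0.452 against 15.4 ± 0.975 (2.29-fold). In each class all 3 CCI sums lay above all 3 control sums. Col9a3 and Col25a1 made up most of the sum of the others, and without them it was 14.5 ± 0.498 against 6.54 ± 0.566.

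**Figure D1:**
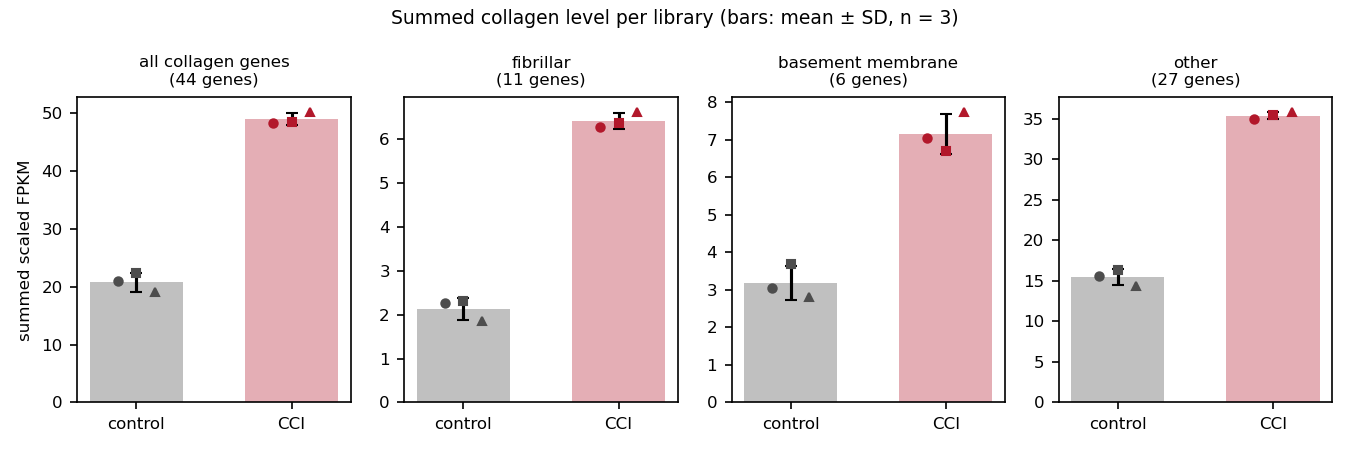
Summed scaled FPKM of all collagen genes and of each class (vertical axes, which differ in range) in control and CCI libraries; bars are means with SD (n = 3) and points are single libraries. The summed level of all 44 genes was 48.2 to 50.2 in CCI and 19.0 to 22.3 in control, and CCI libraries lie above control libraries in each class.

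Of the 44 genes, 35 met the filter on low counts and 9 did not. Of these 35, 27 passed the test, where 52.3% of the 14259 genes tested passed. The 27 were 26 that rose and Col25a1, which fell, where 27.0% of genes tested rose and 25.3% fell. The median log2 fold change of the 35 was 1.67, against 0.06 over all genes tested. More than 2-fold rises numbered 24 among the 35 (18.0% of genes tested) and more than 4-fold rises 13 (4.19%). The lowest CCI library exceeded the highest control library for 29 of the 35, against 33.6% of genes tested, and for 30 of all 44, against 24.3% of the whole table. The reverse held for Col25a1 alone among the 35, against 29.4%. The filter admitted many members through CCI, so counts and medians over the 35 describe them and support nothing: 16 of the 35 met it in all 3 CCI libraries and in fewer than 3 control libraries, against 1370 of all genes tested (9.61%). Of those 16, 14 rose, and of the 19 that were over the cutoff in all 6 libraries, 12 rose, where these routes gave 54.8% and 24.6% over all genes. With no filter, all 44 were tested and 26 rose and 1 fell, against 21.3% and 20.4% of 17958 genes, and the median was 1.27 against 0.16. On log2(deposited FPKM + 1), a scale without the TMM factors, limma called 30 of the 35 higher and 0 lower, but also 47.6% and 9.64% of all genes tested. On that scale 83.2% of all calls were higher, against 51.6% with edgeR, and all genes tested lay at a median of 0.42.

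The counts changed when trends on gene length and base composition were removed. Collagen genes are long and GC-rich, with a median length of 7464 bp and a GC content of 56.1% among the 35, against 4531 bp and 49.7% over genes tested. Across the 14259 tested genes, which share libraries and are not independent, the log2 fold change had a Spearman rho of 0.28 with length, 0.17 with GC content and -0.44 with mean level. When a smooth trend on length was removed from each library, 21 collagen genes rose and 2 fell (21.3% and 27.0% of genes tested). With length and GC content removed, 15 rose and 2 fell (20.7% and 26.6%), at a median of 1.02, and the 15 ranged from 0.73 to 2.88. When mean level was removed as well, 8 rose and 3 fell (18.8% and 19.0%), at a median of 0.39 against -0.02 over all genes. Those 8 were Col4a4, Col4a5, Col9a3, Col11a1, Col11a2, Col16a1, Col19a1 and Col23a1. The same 8 passed in each of the 15 or 16 alternatives that tested them. The stricter filter, which needs 1 CPM in all 6 libraries, left Col4a4, Col4a5, Col11a2, Col16a1 and Col19a1 untested. Col19a1 met the main filter through CCI libraries alone, and Col4a5 and Col11a2 met it in fewer than 3 control libraries.

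**Figure D2:**
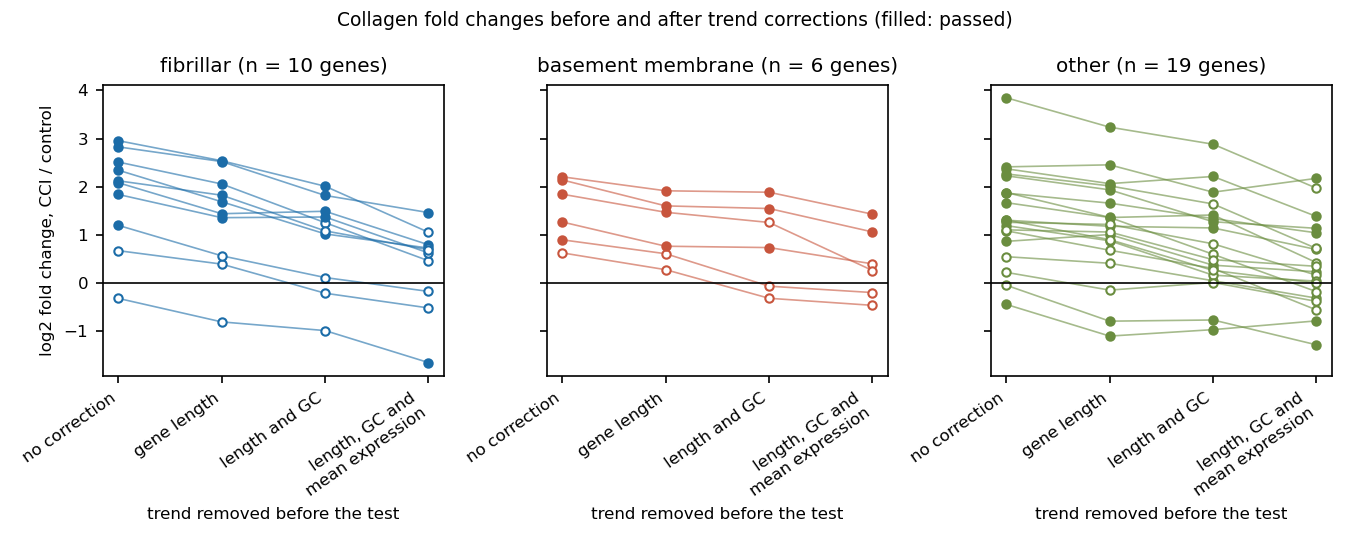
Log2 fold change of CCI over control (vertical axis) of each tested collagen gene with no correction and with trends on gene length, GC content and mean expression removed (horizontal axis), by class; filled points passed an adjusted p of 0.05. Of 26 genes higher with no correction, 15 stay filled above 0 after the length and GC correction and 8 after the correction that includes mean expression.

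Of the 11 fibrillar genes, 10 were tested, and Col24a1 was too low to test. Of the 10, 8 rose, none fell and 2 did not pass, where 27.0% of all genes tested rose and 25.3% fell. The median of the 10 tested was 2.1. Col1a2, a chain of type I collagen, the main fibril of skin and bone, was at 1.67, 1.41 and 1.73 scaled FPKM in CCI and 0.890, 0.666 and 0.548 in control, and rose by 1.19 ± 0.23 (SE, adjusted p = 0.00305). Its partner chain Col1a1 was at 0.550, 0.501 and 0.693 in CCI and 0.381, 0.378 and 0.342 in control, with a log2 fold change of 0.67 ± 0.29 (adjusted p = 0.0777). For both genes the groups did not overlap, and whether their fold changes differ from each other was not tested. After the length and GC correction Col1a2 was at 0.11 (adjusted p = 0.696) and Col1a1 at -0.22 (adjusted p = 0.577).

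Col3a1 is the type III chain found with type I in vessel walls. Its levels were 0.255, 0.158 and 0.188 in CCI and 0.255, 0.446 and 0.0762 in control, so the groups overlapped and the highest and lowest values were both controls. The log2 fold change was -0.33 ± 0.57 (adjusted p = 0.652), and 0.28 (adjusted p = 0.647) without control replicate 5.

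Type V chains were measured at low levels. Col5a1, a type V chain that helps set fibril width, had 22, 19 and 24 counts in CCI and 2, 1 and 5 in control, a rise of 2.96 ± 0.49 (adjusted p = 0.00146), which was 3.56 without control replicate 6. Col5a2, another type V chain, rose by 1.84 ± 0.37 and Col5a3 by 2.12 ± 0.40, and after the length and GC correction Col5a3 was at 1.08 and did not pass (adjusted p = 0.0902). The control counts behind these 3 genes were few, at most 12 in any library, so their fold changes are imprecise.

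The type XI chains, which join type II collagen in cartilage fibrils, rose as well. Col11a1 was at 0.503, 0.430 and 0.417 scaled FPKM in CCI and 0.105, 0.121 and 0.0939 in control, a rise of 2.08 ± 0.29 (adjusted p = 0.000680) with no overlap between groups. Col11a2 was at 0.656, 0.837 and 0.964 in CCI and 0.104, 0.0344 and 0.185 in control, a rise of 2.83 ± 0.46 (adjusted p = 0.00144), which was 3.46 without control replicate 6. Col2a1, the type II chain and main collagen of cartilage, rose by 2.51 ± 0.66 on 69 counts in CCI and 11 in control. Of those 11, control replicate 5 held 8, and without it the rise was 3.93. After the length and GC correction Col2a1 was at 1.25 and did not pass (adjusted p = 0.214).

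Col27a1, a fibrillar collagen of cartilage, was the fibrillar gene of highest mean level after Col1a2. Its levels were 1.15, 1.74 and 1.06 scaled FPKM in CCI and 0.288, 0.200 and 0.281 in control. The rise was 2.34 ± 0.28 (adjusted p = 0.000394), or 5.07-fold, and 1.02 (adjusted p = 0.0164) after the length and GC correction.

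**Figure D3:**
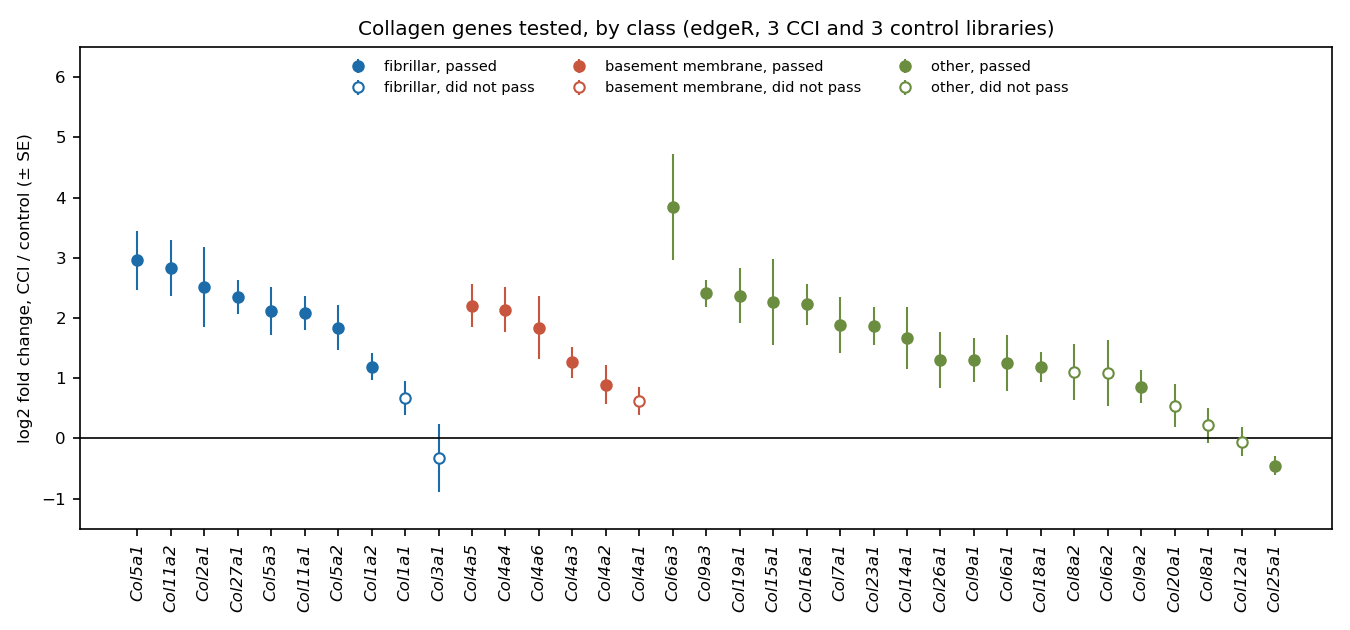
Log2 fold change of CCI over control (vertical axis, points with SE bars) of the 35 collagen genes tested, ordered by class and size; filled points passed an adjusted p of 0.05 and open points did not. Col6a3 is highest at 3.85 and Col25a1 is the only filled point under 0, at -0.45.

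For all 6 type IV genes the groups stood apart with CCI higher, as they did for 33.6% of all genes tested. Of the 6, 5 rose, at a median of 1.55, where 27.0% of all genes tested rose. Type IV chains are encoded in head-to-head pairs, and the 3 pairs are taken in turn. Col4a1, which with Col4a2 builds the network of nearly all basement membranes, was at 1.57, 1.88 and 2.2 scaled FPKM in CCI and 1.16, 1.54 and 1.0 in control. Its log2 fold change of 0.62 ± 0.24 did not pass (adjusted p = 0.0558), and it passed without control replicate 5 (0.78, adjusted p = 0.00863). Col4a2 was at 0.924, 1.09 and 1.61 in CCI and 0.50 to 0.882 in control, a rise of 0.89 ± 0.32 (adjusted p = 0.0444). That call held only when control replicate 6 was the library left out, and was lost without any other single library (adjusted p from 0.0523 to 0.168). After the length and GC correction Col4a1 was at -0.32 and Col4a2 at -0.072, and neither passed. Their gene bodies overlap by 22 bp on opposite strands, and no strand setting is stated for the counts.

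The next chains form the network known from the kidney filter. Col4a3 was at 2.23, 1.84 and 1.90 scaled FPKM in CCI and 0.725, 1.15 and 0.630 in control, a rise of 1.26 ± 0.26 (adjusted p = 0.00389). Col4a4, which starts head to head with Col4a3, was at 1.04, 0.920 and 0.762 in CCI and 0.336, 0.134 and 0.141 in control, a rise of 2.14 ± 0.38 (adjusted p = 0.00204). Col4a5, their X-linked partner, was at 1.10, 0.815 and 1.07 in CCI and 0.213, 0.317 and 0.134 in control, a rise of 2.2 ± 0.36 (adjusted p = 0.00137). The 3 genes passed without each library in turn. After the length and GC correction they were at 0.73, 1.54 and 1.88, and each passed. Col4a6, a chain of smooth muscle basement membranes, rose by 1.84 ± 0.52 (adjusted p = 0.0174) on 50 counts in CCI and 13 in control, and did not pass without CCI replicate 1 (adjusted p = 0.0536), CCI replicate 3 (0.0615) or control replicate 6 (0.0585). The length and GC correction put it at 1.25 (adjusted p = 0.0760).

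Ratios within a library do not depend on the scaling between libraries. Per length, the Col4a5 transcript stood at 0.433 to 0.703 of the Col4a1 transcript in CCI and at 0.133 to 0.206 in control, with no overlap between groups. The Col4a3 to Col4a1 ratio was 0.865 to 1.42 in CCI and 0.625 to 0.749 in control, again apart. By contrast the Col4a1 to Col4a2 ratio overlapped (1.37 to 1.73 against 1.14 to 3.07), as did Col4a3 to Col4a4 (2.0 to 2.49 against 2.16 to 8.61) and Col4a5 to Col4a6 (5.02 to 5.85 against 2.71 to 7.12). Of all 12 ratios across the head-to-head pairs, 6 overlapped between groups as well, among them Col4a3 to Col4a2 (1.18 to 2.42 in CCI and 0.715 to 2.30 in control). Col1a2 stood at 2.50 to 3.04 times Col1a1 in CCI and at 1.60 to 2.34 times in control. An exact two-sided permutation test of 3 libraries against 3 cannot go below 0.10, and no p is given for these ratios.

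**Figure D4:**
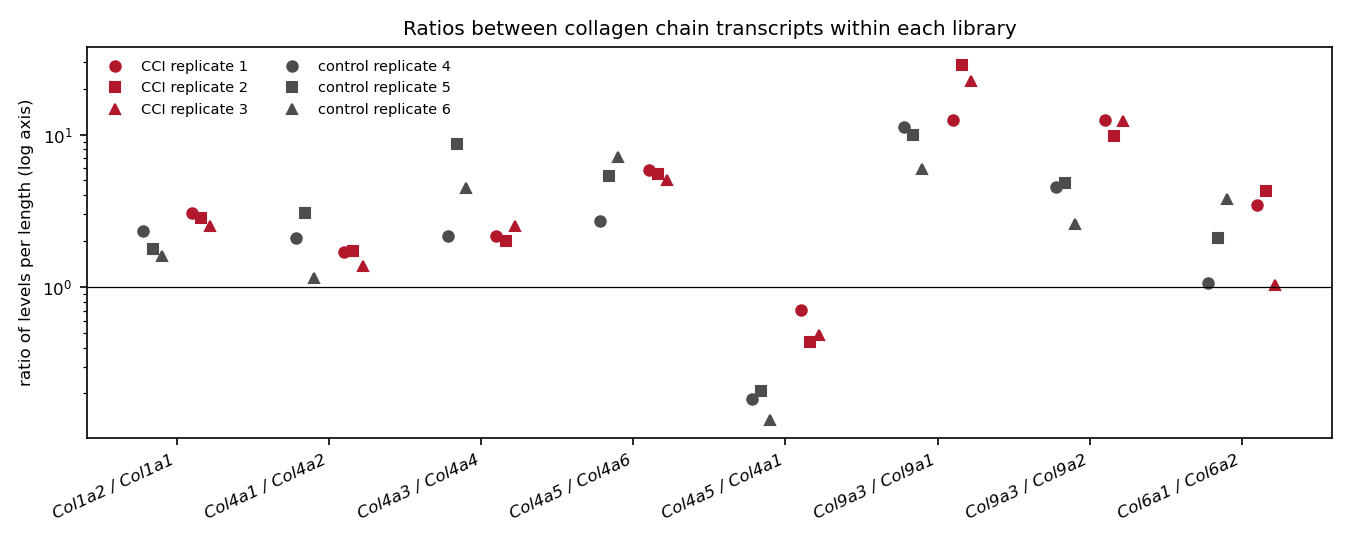
Ratio of scaled FPKM between 2 collagen transcripts (vertical log axis) in each library, for 8 pairs of chains; red points are CCI and grey points control. Col1a2 over Col1a1, Col4a5 over Col4a1, and Col9a3 over Col9a1 and over Col9a2 separate the groups. The ratios within the head-to-head type IV pairs and Col6a1 over Col6a2 overlap.

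Among the 27 other collagens, 19 were tested, of which 13 rose, 1 fell and 5 did not pass, at a median of 1.30. Over all genes tested, 27.0% rose and 25.3% fell. The fibril-associated collagens, which sit on the surface of fibrils, held the most abundant member. Col9a3, a type IX chain (chromosome 2, 180239583 to 180263982, plus strand, GRCm39), was at 15.8, 17.1 and 17.2 scaled FPKM in CCI and 3.77, 3.47 and 2.19 in control. It rose by 2.41 ± 0.22 (adjusted p = 0.000205), or 5.32-fold, on 2186 counts in CCI and 389 in control, and was at 1.88 after the length and GC correction. Its partner chains were lower per length in every library. Col9a1 was at 1.27, 0.594 and 0.760 in CCI and 0.335 to 0.369 in control (1.30 ± 0.36, adjusted p = 0.0154), and without CCI replicate 1 it did not pass (0.94, adjusted p = 0.0797). Col9a2 was at 1.26, 1.74 and 1.39 in CCI and 0.726 to 0.846 in control (0.86 ± 0.28, adjusted p = 0.0297), a call that held only when control replicate 5 was the library left out and was lost without any other (adjusted p from 0.0568 to 0.116). After the length and GC correction Col9a2 was at 0.36 (adjusted p = 0.327). Col9a3 stood at 9.80 to 12.5 times Col9a2 in CCI and at 2.59 to 4.78 times in control.

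Other fibril-associated genes went different ways. Col16a1 was at 1.99, 1.30 and 1.47 scaled FPKM in CCI and 0.449, 0.193 and 0.355 in control, a rise of 2.22 ± 0.34 (adjusted p = 0.00102). Col19a1, which subsets of brain neurons make, had 32, 20 and 58 counts in CCI and 5, 6 and 9 in control, a rise of 2.37 ± 0.46 (adjusted p = 0.00309). Col12a1 was at 0.684, 0.743 and 0.511 in CCI and 0.557, 0.730 and 0.722 in control, so that the groups overlapped (-0.05 ± 0.23, adjusted p = 0.864), and after the length and GC correction it was at -0.77 (adjusted p = 0.0245). Col14a1 rose by 1.67 ± 0.52 (adjusted p = 0.0253) on 17 control counts, and it did not pass when any CCI library or control replicate 6 was removed (adjusted p 0.0553 to 0.0791) or with the length correction (1.36, adjusted p = 0.0545). Col20a1 did not pass (0.54 ± 0.36, adjusted p = 0.229).

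**Figure D5:**
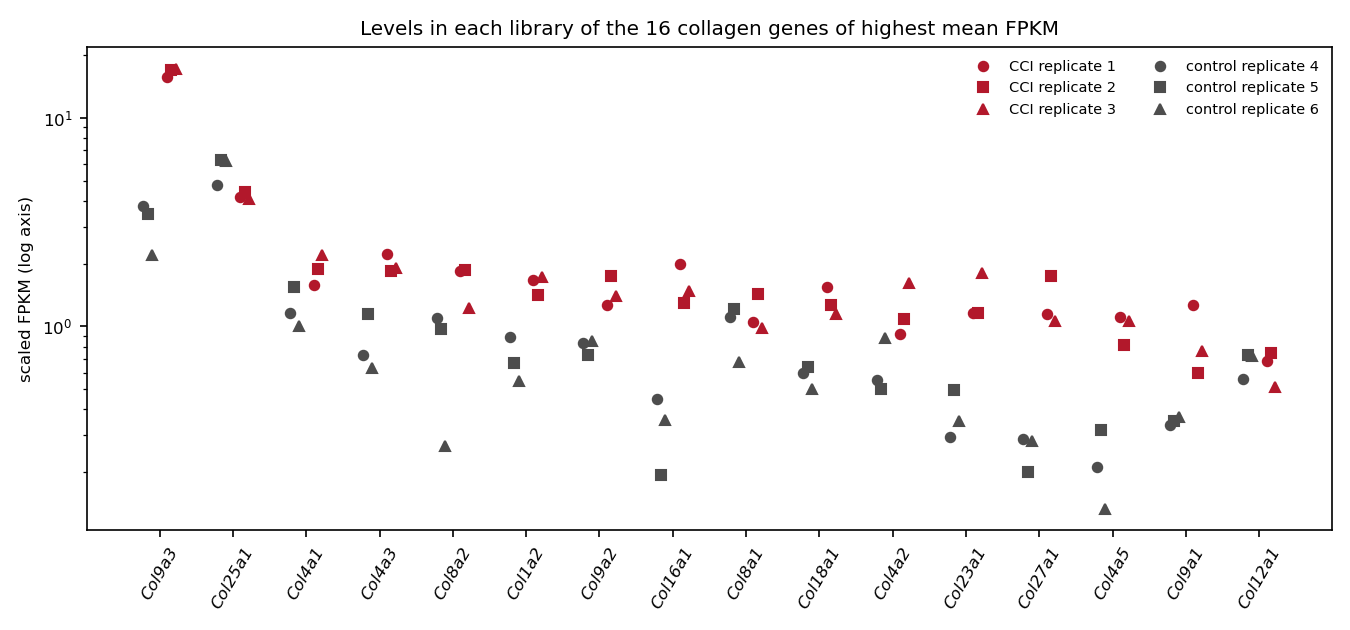
Scaled FPKM (vertical log axis) in each of the 6 libraries of the 16 collagen genes of highest mean deposited FPKM, in that order; red points are CCI and grey points control. Col9a3 lies at 15.8 to 17.2 in CCI and 2.19 to 3.77 in control, whereas Col25a1 is lower in every CCI library and Col8a1 and Col12a1 overlap.

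Transmembrane collagens, which are anchored in the cell surface, held the only member that fell. Col25a1, a collagen made by neurons whose shed part is found in amyloid plaques, was at 4.17, 4.41 and 4.06 scaled FPKM in CCI and 4.75, 6.30 and 6.23 in control. The fall was small (-0.45 ± 0.16, adjusted p = 0.0430), with every CCI library under every control library. It did not pass when any CCI library or control replicate 6 was removed (adjusted p 0.0922 to 0.134), and on log2(deposited FPKM + 1) the value was 0.13 (adjusted p = 0.470), on the scale where all genes lay at a median of 0.42. After the length and GC correction it was -0.98 (adjusted p = 0.00139). Col23a1 went the other way, at 1.15, 1.16 and 1.80 in CCI and 0.296, 0.495 and 0.352 in control, a rise of 1.87 ± 0.32 (adjusted p = 0.00181). Col17a1, the collagen that anchors skin cells to their basement membrane, was too low to test, with 29 counts in CCI and 2 in control, a ratio of 14.1 with a 95% interval of 3.57 to 122 that covers counting error only.

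Col6a3 had the largest fold change of all members, and the size of that change depended on 1 library. Type VI chains form beaded filaments around cells. Col6a3 had 24, 18 and 142 counts in CCI and 4, 5 and 2 in control, a rise of 3.85 ± 0.88 (adjusted p = 0.00664), which was 2.52 (adjusted p = 0.0152) without CCI replicate 3 and did not pass on log2(deposited FPKM + 1) (0.51, adjusted p = 0.0667). Col6a1 rose by 1.26 ± 0.47 (adjusted p = 0.0488), and did not pass when any library other than control replicate 5 was removed (adjusted p 0.0547 to 0.159) or with the length and GC correction (0.81, adjusted p = 0.238). Col6a2 did not pass (1.08 ± 0.55, adjusted p = 0.128). Col6a4, Col6a5, Col6a6 and Col28a1 had 4 to 27 counts over all libraries and were not tested.

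The multiplexins, basement membrane collagens whose cut ends include endostatin, both rose. Col18a1, the source of endostatin, was at 1.54, 1.26 and 1.15 scaled FPKM in CCI and 0.597, 0.640 and 0.501 in control, a rise of 1.19 ± 0.24 (adjusted p = 0.00398), and at 0.16 (adjusted p = 0.690) after the length and GC correction. Slc19a1 overlaps Col18a1 by 8825 bp on the opposite strand and did not pass (0.56 ± 0.31). Col15a1 rose by 2.26 ± 0.71 (adjusted p = 0.0260) on 61 counts in CCI and 12 in control, of which replicate 5 had 0 and replicate 4 had 9. Without control replicate 4 the value was 3.57, and the gene did not pass when CCI replicate 2, CCI replicate 3 or control replicate 6 was removed (adjusted p 0.0582 to 0.0948) or with the length and GC correction (1.64, adjusted p = 0.0682).

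Short-chain network collagens, known from the cornea, did not pass. Col8a1 was at 1.05, 1.42 and 0.984 scaled FPKM in CCI and 1.10, 1.21 and 0.678 in control, with overlapping groups (0.22 ± 0.28, adjusted p = 0.546). Col8a2 was at 1.85, 1.87 and 1.22 in CCI and 1.09, 0.974 and 0.267 in control (1.10 ± 0.47, adjusted p = 0.0757), and it passed without control replicate 5 (1.28, adjusted p = 0.0334). Col7a1, the anchoring fibril chain of skin, rose by 1.88 ± 0.46 (adjusted p = 0.00947) on 62 counts in CCI and 16 in control, but was at 0.59 after the length and GC correction (adjusted p = 0.409). Col26a1 rose by 1.30 ± 0.46 (adjusted p = 0.0411), from 0.116 to 0.512 scaled FPKM in control to 0.569 to 0.993 in CCI, and it did not pass when CCI replicate 1, CCI replicate 3 or control replicate 4 was removed (adjusted p 0.0871 to 0.120). With the length correction it was at 0.90 (adjusted p = 0.131), and with length and GC at 0.26 (adjusted p = 0.601).

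The genes that fold, modify and bind collagen were counted by list, where 27.0% of all genes tested rose and 25.3% fell. Of 10 procollagen folding and secretion genes, 2 rose and 5 fell, at a median of -0.61. The 5 were 2 without CCI replicate 1 and 3 when replicate 2 or 3 of CCI or replicate 4 of the controls was removed, and the 2 were 1 without any library. On log2(deposited FPKM + 1) 5 of the 10 were higher and 2 lower, where 47.6% of all genes tested were higher and 9.64% lower. Sec23a, a coat protein gene of secretory vesicles, fell by 2.09 ± 0.21, and Mia3, which encodes the cargo receptor for procollagen, rose by 0.96 ± 0.16. Kdelr2, an endoplasmic reticulum retrieval receptor gene, was at 116, 119 and 130 scaled FPKM in CCI and 171, 647 and 187 in control, and fell by 1.46 ± 0.48, with control replicate 5 above all other libraries. Without that library the value was -0.58 (adjusted p = 0.00207), and it did not pass without any CCI library (adjusted p 0.0854 to 0.0880).

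Of 15 hydroxylation genes 4 rose and 3 fell (median 0.31), shares close to those of all genes tested. The 4 were 2 without CCI replicate 1 and the 3 were 6 without control replicate 5. Ppib, a proline isomerase gene of collagen folding, rose by 1.01 ± 0.22. P4ha1, a prolyl hydroxylase subunit gene, fell by 0.77 ± 0.14. On log2(deposited FPKM + 1), where all genes tested lay at a median of 0.42, it was at -0.16 (adjusted p = 0.438). P4hb, which encodes its partner, did not pass (-0.39 ± 0.15, adjusted p = 0.0568) except without control replicate 5 (-0.44, adjusted p = 0.00832) and with DESeq2 size factors or the DESeq2 Wald test (adjusted p = 0.0362 and 0.0149).

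Enzymes that act outside the cell and the partners of collagen were also counted. Of 8 tested propeptide removal and cross-linking genes 3 rose and 1 fell (median 1.02), and 5 rose without control replicate 5. Bmp1, the procollagen C-proteinase gene, rose by 1.35 ± 0.23 and was at 0.36 (adjusted p = 0.319) after the length and GC correction. The genes of the enhancers of Bmp1, Pcolce and Pcolce2, did not pass (0.63 ± 0.48 and 0.39 ± 0.15). Pcolce2 did pass in several alternatives, among them the length and GC correction (0.57, adjusted p = 0.0114), and Pcolce only on log2(deposited FPKM + 1) (0.84, adjusted p = 0.0416). Of 9 tested collagen receptor genes 6 rose and 1 fell (median 1.19), and 3 rose without CCI replicate 1. The receptor kinase gene Ddr1 rose by 1.79 ± 0.23. Adgrg1 rose by 0.67 ± 0.17, which did not pass without CCI replicate 1 (adjusted p = 0.0535) or after the length and GC correction (0.10, adjusted p = 0.606). The integrin beta-1 gene Itgb1 fell by 0.92 ± 0.16. On log2(deposited FPKM + 1), where all genes tested lay at a median of 0.42, it was at -0.30 (adjusted p = 0.192).

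Of 16 basement membrane partner genes 8 rose and 2 fell (median 0.95), and after the length and GC correction 3 rose. Only 1 fell when replicate 1 or 3 of CCI or replicate 6 of the controls was removed. The agrin gene Agrn rose by 0.96 ± 0.16 and was at -0.029 after that correction (adjusted p = 0.907). Sparc, which encodes a collagen-binding matrix protein, fell by 0.62 ± 0.21, a call lost with the removal of any of these same libraries (adjusted p 0.0893 to 0.113). The laminin gene Lamb2 did not pass (0.69 ± 0.29) except without control replicate 5 (0.98, adjusted p = 0.00418) and in 4 other alternatives. Of 8 tested degradation genes 1 rose and 1 fell (median 0.25), and 3 rose without control replicate 5. Timp4, an inhibitor gene of matrix proteases, fell by 1.36 ± 0.25, and Timp2 (0.36 ± 0.17) and Timp3 (-0.51 ± 0.38) did not pass, although Timp3 did without control replicate 5 (-0.88, adjusted p = 0.00421). Timp2 passed in several alternatives, among them the stricter filter (0.46, adjusted p = 0.0454) and the length, GC and mean expression correction (1.07, adjusted p = 0.000871).

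Markers of the cell types that the tissue can hold were summed and counted beside these results, where 27.0% of all genes tested rose and 25.3% fell. Summed levels of 10 fibroblast and leptomeningeal markers overlapped between groups, at 28.8 to 36.4 scaled FPKM in CCI and 24.6 to 37.3 in control, with 4 higher and 2 lower of 9 tested and Igf2 listed at 0 in every library. The 10 endothelial markers summed to 57.5 to 68.1 in CCI and 74.8 to 78.3 in control, with 3 higher and 1 lower. The 10 pericyte and smooth muscle markers summed to 55.9 to 72.7 in CCI and 84.8 to 103 in control, with 3 higher (Pdgfrb, Abcc9 and Anpep) and 3 lower (Rgs5, Acta2 and Higd1b) of 9 tested. Rgs5 was the largest part of each sum, at a mean of 24.2 in CCI and 49.5 in control. The higher counts of endothelial and of pericyte and smooth muscle markers were each 1 without CCI replicate 1, the endothelial count also when replicate 2 or 3 of CCI or replicate 6 of the controls was removed, and no fibroblast marker was lower without CCI replicate 1 or 3.

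Choroid plexus markers, 1 higher of 8, summed to 1659 to 2374 in CCI, and 2 were lower without control replicate 6. The control sums were 230 in replicate 6 and 2264 and 3443 in the others. Ttr made up most of each sum, at 218 in control replicate 6. Ependymal markers, 1 higher of 6 tested, summed to 131 to 215 in CCI and 80.7 to 306 in control, and 5 were higher without control replicate 5. Of 8 oligodendrocyte precursor markers 6 rose, also without each library in turn, with sums of 133 to 169 in CCI and 36.5 to 43.3 in control. Pdgfra (0.03, adjusted p = 0.892) and Olig2 (0.22, adjusted p = 0.556) did not pass, and their groups overlapped. Bcas1 was the largest part of each sum, at a mean of 91.3 in CCI and 17.8 in control. Of 8 astrocyte markers 2 rose (Gfap and Aqp4) and 3 fell (Aldoc, Gjb6 and Gja1), with sums of 615 to 727 against 1881 to 2503. Aldoc was the largest part of each sum, at a mean of 342 in CCI and 1634 in control. Slc1a2, Slc1a3 and Aldh1l1 did not pass. The part of these cell types in the collagen result was not tested. In bulk tissue a change in the number of cells of a type and a change in RNA per cell cannot be told apart.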

How the data were processed

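Bulk RNA sequencing libraries were compared, 3 from CCI mice and 3 from untreated wild-type mice. Per the submitters' processing notes, the build was GRCm39 and the tools named, in no stated order, include StringTie 2.2.1, HTSeq 0.9.1, fastp 0.22.0, DESeq 1.38.3 and HISAT2 2.1.0, and per the labels' protocols RNA was poly-A selected and copied from random primers. The strand setting of the counting is not given in the sources used here. The deposited table holds, per the file headers, whole-number read counts, which entered the tests unchanged, and FPKM values, each of which equals its count over gene length and library total (largest difference 4.9e-07).

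The test was the quasi-likelihood test of edgeR 4.0.16 (R 4.3.3) after TMM scaling and filterByExpr (10 counts at the median library size in at least 3 libraries), with Benjamini-Hochberg adjustment and a threshold of 0.05. Standard errors were taken as |log2 fold change| over the square root of the F statistic. Depth limits low genes, and each is given with its counts. GC content came from GENCODE M21 transcripts by Ensembl identifier, for 14241 of 14259 tested genes. Trend corrections were splines with 5 degrees of freedom, removed per library. Alternatives were DESeq2 size factors, the DESeq2 1.42.0 Wald test, limma-voom (limma 3.58.1), limma on log2(FPKM + 1) and log2(FPKM + 0.1), no filter, a stricter filter (1 CPM in all 6 libraries), the corrections and each library left out. The code was tested on simulated data.

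Named were the collagen genes that passed, the 4 of highest mean FPKM in each class, and the 3 of highest mean FPKM in each of 6 pathway lists. The other members that are described were added after their values were seen. The 9 marker lists are given by sums and counts. Members and lists were chosen with earlier results of these data known. Promoter windows are RefSeq's.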

Additional observations from a re-analysis of the deposited data

How the results depend on the processing

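Collagen genes that rose numbered 26, and 19 to 28 without 1 library, where 20.0% to 31.5% of all genes tested rose. They numbered 12 with the stricter filter (17 tested), 15 with the length and GC correction and 8 with mean expression added. Over all genes tested, 27.7%, 20.7% and 18.8% rose in those settings in turn. Those that fell numbered 1, and 0 or 1 without 1 library, 0 with the stricter filter or on either FPKM scale, 2 with either the length or the length and GC correction and 3 with mean expression added. Fibrillar rises numbered 8, and 4 (of 4 tested), 5 and 2 with the stricter filter, the length and GC correction and mean expression added, where 1 fell. Type IV rises numbered 5, and 3 to 5 without 1 library and 3 (of 3 tested), 3 and 2 in those settings. Rises of the others numbered 13, and 8 to 15 without 1 library and 5 (of 10 tested), 7 and 4 in those settings. Falls of the others numbered 1, 0 or 1 without 1 library, 0 with the stricter filter and on the FPKM scales, and 2 with each correction.

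Over all genes 3853 rose and 3608 fell (51.6% higher), against 6785 and 1374 on log2(FPKM + 1) (83.2% higher) and 6632 and 1345 on log2(FPKM + 0.1). With the length and GC correction the sign turned for Col4a1 (-0.32), Col4a2 (-0.072), Col1a1 (-0.22), Lamb2 (-0.20) and Agrn (-0.029). With mean expression added it turned for Col4a1 (-0.47), Col4a2 (-0.20), Col1a1 (-0.52), Col1a2 (-0.18), Col7a1 (-0.19), Col26a1 (-0.0074), Lamb2 (-0.29), Col6a2 (-0.57), Col20a1 (-0.32), Col8a1 (-0.39), P4hb (0.38), Kdelr2 (0.069) and Sparc (0.33). On log2(FPKM + 1) and log2(FPKM + 0.1) it turned for Col25a1 (0.13 and 0.16), P4hb (0.20 and 0.20), Timp3 (0.17 and 0.18), Col3a1 (0.060 and 0.29) and Col12a1 (0.22 and 0.47). Each of these values lay under the median of all genes tested on its scale, 0.42 and 0.65 in turn. Near 0, the sign also turned for Col3a1 with limma-voom (0.043) and without control replicate 5 (0.28), for Col12a1 with the stricter filter (0.050) and without CCI replicate 3 (0.091) or control replicate 6 (0.0015), and for Col8a1 with the length correction (-0.15) and without control replicate 6 (-0.012). The causes of these turns were not tested. No paired analysis was possible because the groups share no replicate numbers. Depth limits the 9 untested genes, and 18 of the 26 rises passed without each library in turn.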
